A study of Arabidopsis thaliana with 17 samples.

Results

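DFR, BAN and INO are genes of the maternal coverings of the Arabidopsis seed, and each was read by 1 probe set on the ATH1 array. They were chosen as the probe sets that name DFR, BAN or INO and no other gene, which gave 3 genes, each with 1 probe set, of 13356 genes named so among 22746 probe sets. DFR (AT5G42800) encodes dihydroflavonol reductase, BAN (AT1G61720) encodes anthocyanidin reductase and INO (AT1G23420) encodes a transcription factor of the YABBY family.

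Flavonoids are made from chalcones through dihydroflavonols. DFR reduces dihydroflavonols towards leucoanthocyanidins and anthocyanidins, and BAN turns anthocyanidins into the flavan-3-ols from which proanthocyanidins, the tannins that brown the Arabidopsis seed coat, are built. Proanthocyanidins collect in the innermost layer of the seed coat, the endothelium, and at the chalazal end. INO is known from the ovule, where it is expressed in the outer layer of the outer integument and is needed for that integument to grow. The integuments become the seed coat after fertilisation.

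The arrays came from seeds of the Ws-0 accession with globular embryos of 24 to 32 µm on plants aged 38 to 46 days. All groups share that genotype, and no treatment sets them apart. Laser capture from 5 or 7 µm paraffin sections gave the embryo proper, the suspensor that anchors it, the micropylar, peripheral and chalazal endosperm, the chalazal and general seed coat, and whole seeds. Each group had 2 arrays and chalazal endosperm had 3, 17 arrays in 8 groups. The labels call the samples of a group biological replicates and do not say which plants a capture came from. Where captures of the same group shared a plant the p-values, which rest on the spread between these samples, are too small. Sharing between groups was not used as a pairing in the main fit.

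Values are array intensities without a unit. The background limit of an array was its highest signal among 27 control probe sets for bacterial genes, from 49.2 to 144 between arrays, and 44.5% to 66.0% of probe sets lay above it. Arrays of a group correlated at 0.864 to 0.939 across probe sets, and arrays of different groups at 0.529 to 0.872. GAPDH control probe sets for both transcript ends bear on how complete the RNA was, and their 3' over 5' ratio was 5.30 ± 0.803 in general and 6.20 ± 2.17 in chalazal seed coat and 2.99 ± 0.145 in whole seed (SD, n = 2), and ran from 5.45 to 27.7 on the embryo and endosperm arrays. Its part in the differences below was not tested. The compartment labels could be checked on few markers, since 2 of 8 embryo, 4 of 11 endosperm and 2 of 5 vascular or chalazal markers were named alone by a probe set in the annotation used. BBM, an embryo regulator, stood at 695 ± 32.9 in embryo proper and 29.4 ± 31.2 in general seed coat (SD, n = 2). ACR4, a receptor kinase of outer cell layers and the other embryo marker, stood at 2910 ± 1162 in embryo proper but also at 1876 ± 1012 in general seed coat, against 65.9 ± 42.4 in chalazal seed coat, and the part of embryo tissue in the general seed coat values was not tested. AGL62, an endosperm regulator, read 4863 ± 1071 in chalazal endosperm (SD, n = 3) and 156 ± 34.7 in chalazal seed coat, while AGL40, another endosperm factor, read 9434 ± 4039 and 867 ± 621. The other endosperm markers, IKU2 and MPC, highest in micropylar and peripheral endosperm, read 36.9 ± 14.1 and 214 ± 15.7 in general seed coat. Of the vascular or chalazal markers, the sugar exporter SWEET10 measured 6520.0 ± 783 in chalazal but 26.6 ± 29.1 in general seed coat, and the sugar transporter SWEET4 measured 1489 ± 408 and 11.1 ± 12.7. Of 11 seed coat markers listed, 2 were named so, BAN and INO themselves.

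DFR was bright in both parts of the seed coat. Its intensities were 30964 and 31116 on the general and 17430.0 and 20263 on the chalazal seed coat arrays. The whole seed arrays read 10626 and 10181. These 6 arrays were the highest of the 17, and the 3 groups did not overlap. Among the endosperm parts, DFR read 1766 and 1463 in micropylar, 1088 and 1368 in peripheral, and 44.7, 298 and 564 in chalazal endosperm. The suspensor arrays read 631 and 744. The embryo proper arrays read 95.01 and 63.3, both under their background limits, as was the chalazal endosperm array at 44.7. The 8 other embryo and endosperm arrays were above theirs.

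The order of mean DFR levels was general seed coat, chalazal seed coat, whole seed, micropylar endosperm, peripheral endosperm, suspensor, chalazal endosperm and embryo proper. Neighbours in this order had arrays apart, with means farther apart than the sum of their SDs, except for micropylar and peripheral endosperm and for chalazal endosperm and embryo proper. Across these groups the mean fell from 31040.4 ± 108 in general seed coat to 1614 ± 214 in micropylar endosperm, 5.2% of it, and to 79.1 ± 22.4 in embryo proper, which was under background (SD, n = 2). Within chalazal endosperm the array with the lowest DFR had the highest GAPDH ratio, 27.7, and the arrays at 298 and 564 had ratios of 16.1 and 10.8. BAN was under background on all 3 of these arrays. In micropylar and peripheral endosperm the array with the higher ratio, 22.7 and 13.2, had the higher DFR. In suspensor the array with the higher ratio, 7.10, had the lower DFR. The part of RNA quality in these levels was not tested.

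BAN was bright in the same tissue, again with general above chalazal seed coat. Its intensities were 6369 and 9365 in general seed coat, 4059.6 and 3996 for whole seeds and 2310 and 2083 in chalazal seed coat. The 3 groups did not overlap, and whole seed, which holds every compartment, lay above chalazal seed coat. Outside the coat BAN read 462 and 94.3 in micropylar, 167 and 134 in peripheral, and 113, 124 and 59.6 in chalazal endosperm. Suspensor read 119.6 and 85.9, and embryo proper 3.85 and 16.9. Of these 11 arrays, 5 were above their background limit, namely both suspensor arrays, both peripheral endosperm arrays and the micropylar array at 462.

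The order of mean BAN levels was general seed coat, whole seed, chalazal seed coat, micropylar endosperm, peripheral endosperm, suspensor, chalazal endosperm and embryo proper. Micropylar and peripheral endosperm were not apart beyond their spread, nor were suspensor and chalazal endosperm. The fall from chalazal seed coat at 2197 ± 160.2 to micropylar endosperm at 278 ± 260.2 (SD, n = 2) was 7.89-fold. Both embryo proper arrays were under background.

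INO had a lower signal and a narrower pattern. Its intensities were 693 and 719 in general seed coat, against 247 and 162 for whole seeds, all above the background limits. In chalazal seed coat it read 53.2 and 71.6, neither above background. In endosperm it read 290.5 and 50.4 in the micropylar, 31.4 and 71.0 in the peripheral, and 89.3, 184 and 113 in the chalazal part. Suspensor read 139 and 40.8, and embryo proper 9.22 and 54.1. Only 4 of these 11 embryo and endosperm arrays exceeded background, namely 1 of suspensor, 1 of micropylar endosperm and 2 of chalazal endosperm.

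General seed coat, at 706 ± 18.8, stood apart from whole seed at 205 ± 60.1 (SD, n = 2), the next in the order of mean INO levels. No later pair of neighbours differed beyond its spread: whole seed, micropylar endosperm at 170.5 ± 169.7, chalazal endosperm, suspensor, chalazal seed coat at 62.4 ± 13.0, peripheral endosperm and embryo proper.

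**Figure D1:**
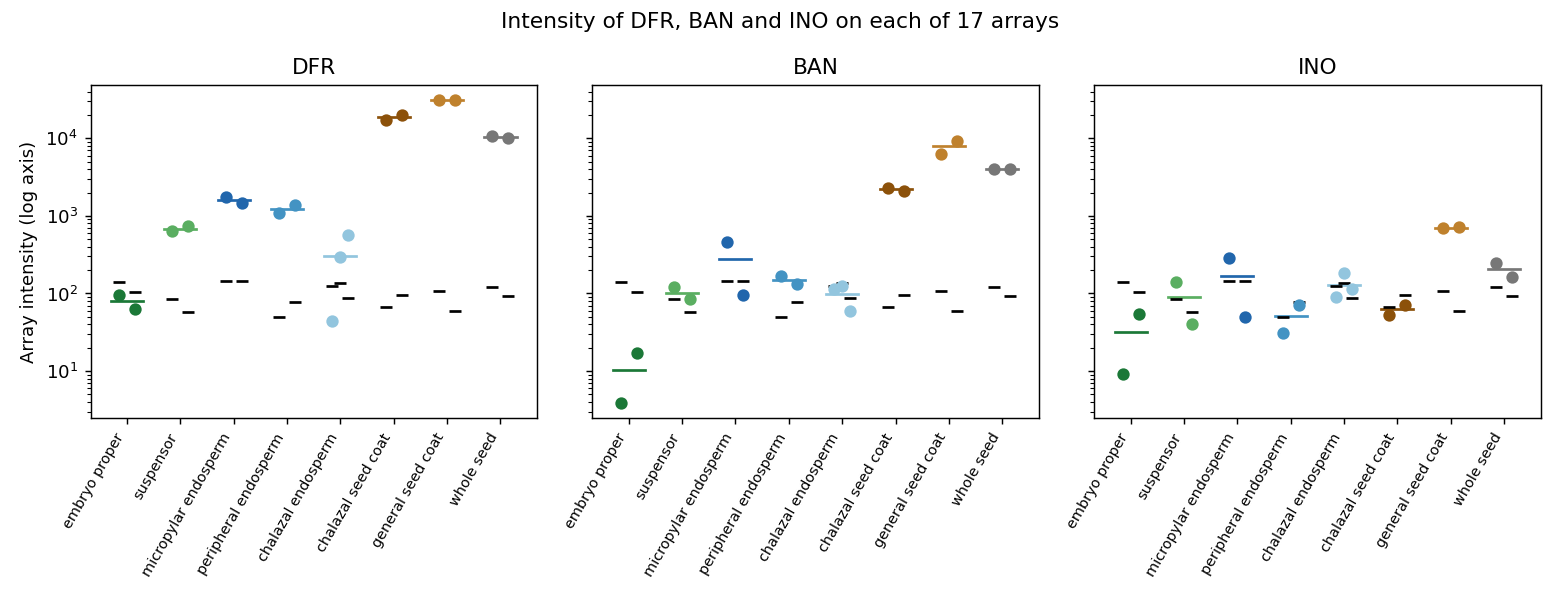
Array intensity (log axis) of DFR, BAN and INO in each group. Points are single arrays, coloured bars are group means and black dashes are the background limit of each array. DFR and BAN are high in both seed coat groups and in whole seed, while INO is highest on the general seed coat arrays, 693 and 719, and under background in chalazal seed coat.

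All 3 genes shared the general seed coat as their highest group. Both general seed coat arrays lay above the 15 other arrays for each of them, which held for 3.71% of all probe sets. The lowest general seed coat array exceeded the highest other array 1.53-fold for DFR, 1.57-fold for BAN and 2.39-fold for INO. That highest other array was a chalazal seed coat array for DFR, a whole seed array for BAN and micropylar endosperm 1 for INO.

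Both seed coat parts together lay above embryo and endosperm for DFR and BAN only. All 4 seed coat arrays were higher than all 11 embryo and endosperm arrays for these genes, as for 4.17% of all probe sets (948). The gap was 9.87-fold for DFR, from 17430.0 to 1766, and 4.51-fold for BAN, from 2083 to 462. For INO the lowest seed coat array, at 53.2, was under the highest of the 11, at 290.5. In all 3 genes the highest of the 11 was micropylar endosperm 1. That array was also the highest of the 11 for 170 of the 948 probe sets, 17.9%, more than any other array, and its GAPDH ratio was 22.7. Its part in the endosperm levels of DFR, BAN and INO was not tested. In such captured tissue, fewer cells with a transcript and less of it per cell cannot be told apart.

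Chalazal seed coat, at the pole reached by the vascular strand, was compared with general seed coat. INO was lower in chalazal seed coat, by a log2 difference of -2.99 ± 0.70 (SE; limma adjusted p = 0.00627, 2 arrays against 2), and at least 8.73-fold, since neither chalazal array was above background. BAN measured a log2 difference of -1.80 ± 0.57 and was 3.52-fold lower (limma adjusted p = 0.0533), which did not pass the threshold. DFR measured -0.72 ± 0.56, with a 95% confidence interval from -1.87 to 0.42 (limma adjusted p = 0.603). That SE draws on the spread in all 8 groups. In a fit of the seed coat arrays alone it was 0.26, and DFR was not called (limma adjusted p = 0.135). The chalazal level was 60.7% of the general level for DFR and 27.9% for BAN. Of all probe sets, 6.98% were called in this comparison, against 1 of the 3 genes.

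The INO difference stayed between -3.13 and -2.84 when 1 array was left out. Its call was lost without chalazal seed coat 1, without general seed coat 1 and without general seed coat 2. BAN was called in 5 of 13 alternatives, with limma adjusted p between 0.00352 and 0.0456, and not in the other 8. Those 8 held every fit that left out 1 array, where the BAN difference ran from -2.08 to -1.52.

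The seed coat was set against the embryo, the mean of embryo proper and suspensor. DFR was higher in seed coat by 6.44 ± 0.40 on the log2 scale and at least 83.5-fold (limma adjusted p = 3.03e-12), with 2 of 4 embryo arrays above background. BAN was higher by 5.82 ± 0.40 and at least 37.0-fold (limma adjusted p = 1.65e-11), again with 2 of 4 embryo arrays above background. INO was higher by 1.7 ± 0.49 (limma adjusted p = 0.0116), but its 4 seed coat and 4 embryo arrays overlapped. All 3 genes were called, where 23.7% of all probe sets were. Both chalazal seed coat arrays were under background for INO, so no fold is given for INO. Its call was lost without embryo proper 1 (adjusted p = 0.0683) and without suspensor 2 (adjusted p = 0.0818).

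Against the mean of the 3 endosperm parts, DFR was higher in seed coat by 4.93 ± 0.35 on the log2 scale and at least 29.7-fold (limma adjusted p = 2.23e-11). BAN was higher by 4.54 ± 0.36 and at least 25.1-fold (limma adjusted p = 1.19e-10). INO measured 1.05 ± 0.44 with overlapping arrays (limma adjusted p = 0.0703) and was called without micropylar endosperm 1 (log2 difference 1.38, adjusted p = 0.0153). Without that array the DFR and BAN differences were 4.97 and 4.87. The background of calls was 31.7% of all probe sets.

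Neighbouring tissues across the boundary of seed coat and endosperm were compared next. From peripheral endosperm to general seed coat, DFR was higher by 4.63 ± 0.56 on the log2 scale, 25.4-fold (limma adjusted p = 6.4e-07). BAN was higher by 5.42 ± 0.57, 51.5-fold (limma adjusted p = 1.14e-07). INO was higher by 3.21 ± 0.70, at least 11.4-fold (limma adjusted p = 0.00107), with neither peripheral array above background. All 3 genes were called here, beside 21.1% of all probe sets.

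At the chalazal pole the same step was seen for the reductases. DFR was higher in chalazal seed coat than in chalazal endosperm by 6.26 ± 0.51 on the log2 scale, at least 68.3-fold (limma adjusted p = 1.1e-09), and BAN by 4.13 ± 0.52, at least 19.2-fold (limma adjusted p = 5e-07). The DFR difference was 5.41 without chalazal endosperm 1, the array with the lowest DFR, and 6.90 without chalazal endosperm 3, and was called in both. INO measured -0.74 ± 0.64, with a 95% confidence interval from -2.05 to 0.57 (limma adjusted p = 0.438). In this comparison 28.8% of all probe sets were called. The INO arrays of chalazal endosperm read between 89.3 and 184, and both chalazal seed coat arrays were under background.

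The step from the general or peripheral part to the chalazal part was then compared between seed coat and endosperm. For INO the step was -2.99 in seed coat and 0.96 ± 0.64 in endosperm, a difference of -3.95 ± 0.95 on the log2 scale (limma adjusted p = 0.00463). Both peripheral endosperm arrays, chalazal endosperm 1 and both chalazal seed coat arrays were under background for INO. For DFR the step was -0.72 in seed coat and -2.35 in endosperm, a difference of 1.63 ± 0.76 (limma adjusted p = 0.159). For BAN it was -1.80 and -0.52, a difference of -1.29 ± 0.77 (limma adjusted p = 0.298). Of all probe sets, 15.8% were called for this difference, against 1 of the 3 genes. The DFR difference passed the threshold without chalazal endosperm 3 (2.26, adjusted p = 0.0217), the array of that group with the highest DFR, and was 0.78 without chalazal endosperm 1 (adjusted p = 0.367).

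Whole seed, which mixes all compartments, was compared with general seed coat. The whole seed level was 33.5% of the general seed coat level for DFR, 51.2% for BAN and 29.0% for INO. The log2 differences were -1.57 ± 0.56 for DFR (limma adjusted p = 0.13), -0.93 ± 0.57 for BAN (limma adjusted p = 0.502) and -1.67 ± 0.70 for INO (limma adjusted p = 0.236). None of the 3 passed the threshold in limma, DFR and INO being at an unadjusted p of 0.00898 and 0.0244 and BAN at 0.112, and 3.82% of all probe sets did. A fit of these 4 arrays alone called all 3, with adjusted p from 0.00285 to 0.0468.

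**Figure D2:**
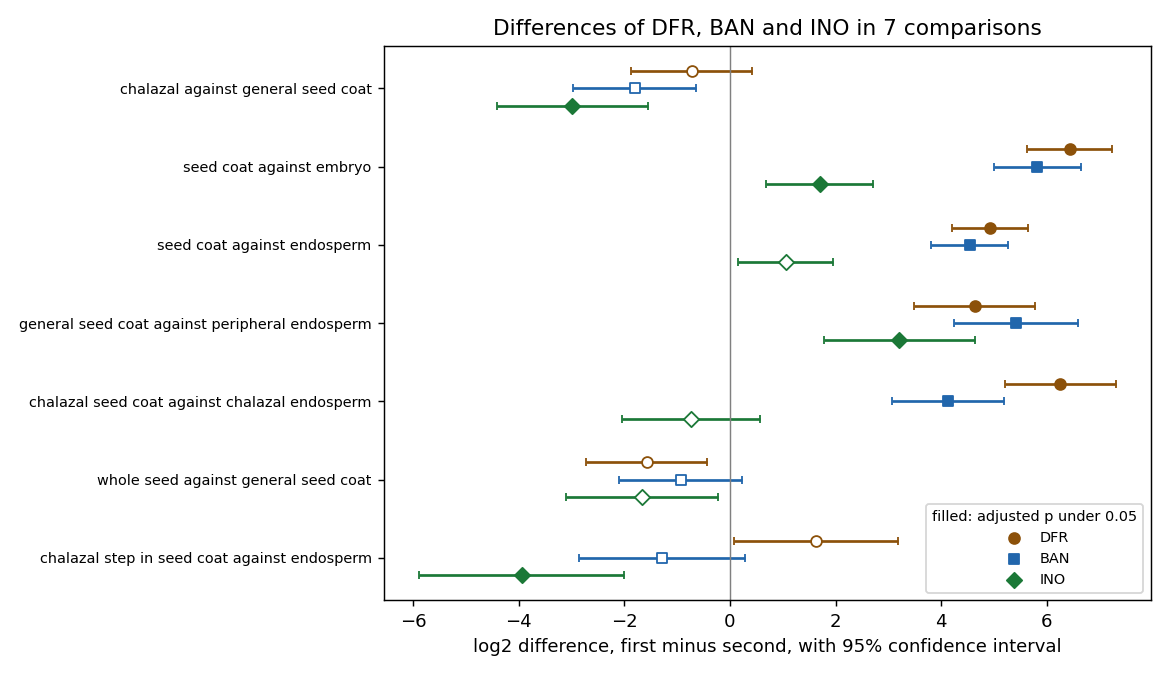
Log2 differences of DFR (circles), BAN (squares) and INO (diamonds) in 7 comparisons, with 95% confidence intervals, filled where the adjusted p passed 0.05. DFR and BAN lie between 4.13 and 6.44 in the 4 comparisons of seed coat with embryo or endosperm, while INO is called in 2 of these 4 and has the largest drop from general to chalazal seed coat, -2.99.

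Other genes of the flavonoid pathway were followed where a probe set named them alone, which was so for 6 of 19 enzymes listed, DFR and BAN among them. CHIL, a chalcone isomerase-like protein that promotes flavonoid synthesis, measured 13509 ± 1122 in the general and 6803 ± 310.6 in the chalazal part of the coat, with 5121 ± 1.12 in whole seed and 66.8 ± 31.7 in embryo proper (SD, n = 2). UGT78D1, which adds rhamnose to flavonols, measured 30216 ± 5117 in the general and 5289.6 ± 2042 in the chalazal part, 5.90-fold lower in the latter (limma adjusted p = 0.048), and at 4847 ± 2204 in suspensor. UGT78D1 was the 1 enzyme of the 6 called between the seed coat parts.

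UGT78D2, which adds glucose to flavonoids, ran the other way against embryo. It measured 239 ± 46.9 in the general and 101 ± 30.9 in the chalazal part. The embryo proper read 571 ± 265 and the suspensor 1208 ± 219.6 (SD, n = 2). It was 5.25-fold higher in embryo than in seed coat (limma adjusted p = 0.000537). Peripheral endosperm read 698 ± 252, and UGT78D2 was not called between seed coat and endosperm (limma adjusted p = 0.15). UGT79B1, which adds xylose to anthocyanins, was above background in both arrays of a group only in chalazal seed coat, at 142 ± 11.99.

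Against embryo, 4 of the 6 enzymes were higher in seed coat, 1 was lower and 1 was not called, where 23.7% of all probe sets were called, with a median log2 difference of 4.22, beside 0.10 over all probe sets. Against endosperm, 4 were higher, none lower and 2 not called, where 31.7% of all probe sets were called, with a median of 4.34 beside 0.06. The 4 were CHIL, DFR, BAN and UGT78D1 in both comparisons. The seed coat and embryo arrays of UGT78D1 overlapped, with suspensor up to 6406 and chalazal seed coat from 3846. Between chalazal and general seed coat, 1 was lower and 5 were not called, where 6.98% of all probe sets were called, with a median of -1.01 beside -0.05. DFR and BAN are themselves among the 6.

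Of 6 genes listed for transport and oxidation of proanthocyanidins, 1 was measured alone. This was TT15, a sterol glucosyltransferase whose mutant has pale seeds, with 588 ± 130.4 in the general and 316 ± 94.6 in the chalazal part (SD, n = 2). It was called in none of the 7 comparisons by limma, where its lowest unadjusted p was 0.0615. The 15 regulators listed, the MYB, bHLH and WD40 proteins that switch on DFR and BAN among them, were not matched by name to a probe set and were not analysed here; 8730 of the 22746 probe sets are unnamed in the annotation used.

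INO was compared with its family and with other genes of ovule and integument growth. Of 6 YABBY genes, 3 were measured alone. YAB3 and YAB5, which mark the lower side of leaves, were above background on none of the 17 arrays. INO was the 1 of the 3 above background on any array.

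Of 20 ovule and integument genes listed, 5 were measured. SEU, a co-repressor, measured 2023 ± 642 in the general and 2905 ± 434 in the chalazal part (SD, n = 2), and was higher in seed coat than in endosperm at least 8.96-fold (limma adjusted p = 3.16e-07). PHV, a transcription factor of upper organ sides, stood at 199.7 ± 116 and 316 ± 38.1, and was higher than in endosperm at least 2.38-fold (limma adjusted p = 0.000114). HLL, a mitochondrial ribosomal protein needed for ovule growth, was higher than in endosperm at least 2.03-fold (limma adjusted p = 0.026), with overlapping arrays. TSO1 and NZZ were not called in that comparison, where 31.7% of all probe sets were. Against embryo limma called 0 of the 5, where 23.7% of all probe sets were called. In embryo proper SEU stood at 1921 ± 91.6 and PHV at 448 ± 83.3 (SD, n = 2). Between chalazal and general seed coat limma called 0 of the 5, whose lowest unadjusted p was 0.248, where 6.98% of all probe sets were called.

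Among 11 genes of seed coat mucilage and epidermis, 2 were measured. SBT1.7, a subtilase needed for mucilage release, measured 5793 ± 1169 in the general and 675 ± 231.5 in the chalazal part (SD, n = 2), 8.76-fold lower in the latter (limma adjusted p = 0.00149). Its whole seed level, 19315 ± 2194, was above that of general seed coat, the highest of the 7 compartments, unlike those of DFR, BAN and INO. This difference from general seed coat was not called (limma adjusted p = 0.132). PER36, a peroxidase, was above background on no array.

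The genes most like each of the 3 in their pattern were sought by Pearson correlation over the 17 arrays, among 6139 probe sets naming 1 gene and bright in some group. Arrays share groups and scaling, so these values are descriptions. DFR was most like CHIL (r = 0.967), AT3G49270 (0.954), AT2G38900 (0.951), LPR2 (0.948) and AT4G34500 (0.946). BAN was most like CHIL (r = 0.965), HCT, an acyltransferase of phenylpropanoid synthesis (0.963), RING1 (0.959), AT5G55320 (0.958) and AT1G68470 (0.956). DFR and BAN correlated at r = 0.928, which ranked BAN at 11 in the DFR list and DFR at 30 in the BAN list.

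The highest r for INO was lower. INO exceeded background on 4 of the 11 embryo and endosperm arrays and on neither chalazal seed coat array. The part of these dim values in its r was not tested. The genes nearest to INO were AT1G70420 (r = 0.866), AT4G16980 (0.859), AT5G02580 (0.855), ALDH3F1, an aldehyde dehydrogenase (0.849), and AT5G06930 (0.847). Their levels in the seed coat entered the choice and are given as a description. ALDH3F1 measured 2860.3 ± 13.5 in the general and 53.4 ± 4.00 in the chalazal part, and AT5G02580 1811 ± 373 and 3.63 ± 1.01 (SD, n = 2). Both chalazal means were under the background limits of the chalazal seed coat arrays, 67.9 and 96.4. INO correlated with BAN at r = 0.702 and with DFR at 0.561 over the 17 arrays.

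The leading names depended in part on the offset added before taking logs and on the scaling of the arrays. CHIL was among the 5 nearest to DFR in 5 of 5 settings and among the 5 nearest to BAN in 4 of 5. LPR2 was so for DFR in 1 of 5, and quantile normalization kept 3, 2 and 3 of the 5 genes nearest to DFR, BAN and INO.

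**Figure D3:**
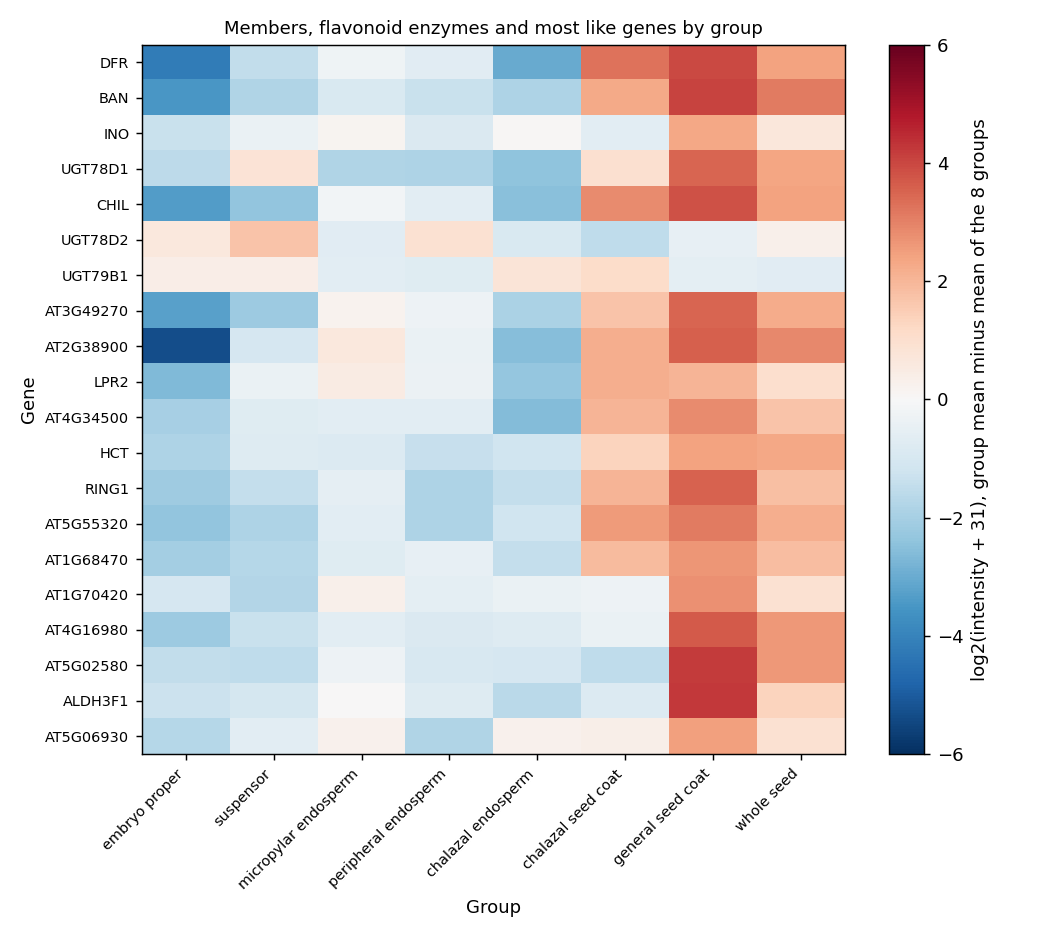
Group means of log2(intensity + 31) minus the mean of the 8 groups, for DFR, BAN and INO, the other flavonoid enzymes and the most like genes. DFR, BAN and the genes nearest to them are red in both seed coat parts and whole seed, UGT78D2 and UGT79B1 differ from them, and the 5 genes nearest to INO (lowest rows) reach 2.44 to 4.26 in general and -1.52 to 0.35 in chalazal seed coat.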

How the data were processed

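The authors deposited 1 table of array intensity values on a linear scale for 17 ATH1 arrays. GCOS is named per the submitters' processing notes, with its algorithm and version not given in the sources used here. The deposited values look scaled per array, the mean without the top and bottom 2% being 499.712 to 499.832. RNA of 2 to 4 ng was amplified, per the labels' protocols. Such amplification can favour 3' ends.

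Of 22810 probe sets, 64 controls were left out. Log2 values were taken of the deposited intensity + 31, so log2 differences understate changes of dim genes. Group means were fitted to the 17 arrays together by limma 3.58.1 (R 4.3.3, 9 residual degrees of freedom, intensity trend, two-sided, Benjamini-Hochberg over 22746 probe sets, threshold 0.05), after tests on simulated data. Folds are ratios of geometric means of intensity. "At least" marks a dim group not fully above background, with dim arrays raised to their limit where below it. Probe sets were named by the platform annotation with loci updated through TAIR10.1: 13513 named 1 gene, 503 several and 8730 none. Named genes are the members, list genes with a probe set of their own and the 5 probe sets most like each member. The members and lists were chosen with earlier results of these data known. Alternatives changed the offset, scaling, filter, trend, weights, arrays fitted and replicate block, or left out an array. Promoter and protein sequences were not used here.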

Additional observations from a re-analysis of the deposited data

Results flagged for a closer look

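INO is reported again because its step towards the chalazal pole differed between seed coat and endosperm when the difference itself was tested. The chalazal minus general step in seed coat was -2.99 and the chalazal minus peripheral step in endosperm was 0.96 ± 0.64, a difference of -3.95 ± 0.95 on the log2 scale (SE, limma adjusted p = 0.00463). Both chalazal seed coat arrays, both peripheral endosperm arrays and chalazal endosperm 1 were under the background limit for INO. Over the 18 alternatives the difference ran from -4.90 to -2.68, with adjusted p from 0.000831 to 0.0374.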

How the results depend on the processing

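Over 21 results and 324 alternatives, 302 kept direction and call, 6 lost the call, 16 gained it and 0 reversed. Between chalazal and general seed coat, INO was -3.52 with no offset (adjusted p = 0.0797) and -3.13 to -2.84 leaving out 1 array each. BAN there was called at -1.76 with an offset 4 times as large, -2.10 after quantile normalization, and -1.80 with the filter on dim probe sets, array weights or only the arrays compared. INO in seed coat against embryo ran from 1.39 to 2.01 leaving out 1 array each. Against endosperm it ran from 0.72 to 1.38, and was called at 0.79 with the larger offset and at 1.05 without the intensity trend. In whole seed against general seed coat, the larger offset called DFR at -1.57 and INO at -1.35, array weights called DFR at -1.57, and only the arrays compared called DFR at -1.57, BAN at -0.93 and INO at -1.67. The DFR difference of chalazal steps ran from 0.78 to 2.26 leaving out 1 array each.

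Replicate numbers were not used to pair samples in the main fit. Deviations of same-numbered arrays correlated at -0.0933 to 0.0920 over 28 pairs of groups. That cannot show whether their captures shared plants, since the noise of single arrays enters these deviations. With the replicate block, which cannot use chalazal endosperm 3, the DFR difference of chalazal steps was 2.26 (adjusted p = 0.023), and the block changed no other call of the 3 genes. The causes were not tested.

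Called probe sets between the seed coat parts numbered 1587, and 835 with no offset, 2606 with array weights, and 787 to 883 leaving out 1 array each. For whole seed against general seed coat they numbered 869, and 565 without the trend, 2050 with weights, 1841 with only the arrays compared, and 308 to 418 leaving out 1 array each. For general seed coat against peripheral endosperm the count was 4810, and 3132 without general seed coat 2. For the chalazal steps it was 3583, and 2240 with no offset, 2181 without chalazal seed coat 2 and 2341 without general seed coat 1. Setting arrays to a common 75th percentile moved the median of all probe sets from 0.10 to -0.06 against embryo, from 0.06 to -0.32 against endosperm, from 0.16 to -0.14 for general seed coat against peripheral endosperm, from 0.04 to -0.47 for chalazal seed coat against chalazal endosperm and from -0.12 to -0.33 for the steps. The share of calls that were higher moved from 57.3% to 46.9%, 62.9% to 40.7%, 60.9% to 47.4%, 63.1% to 39.7% and 53.9% to 44.0%. Quantile normalization moved it to 51.8% against endosperm. No member changed direction. Of the 5 genes nearest to DFR, BAN and INO, 2, 1 and 2 were shared with no offset, 4, 2 and 2 with the larger offset and 3, 2 and 3 after quantile normalization. With 2 or 3 arrays a group, their number limits the precision.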
